A study of Gallus gallus with 6 samples.

Results

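The genes described here carry ions and water across the intestinal epithelium: CFTR, SLC26A3, SLC9A2, SLC9A3, SLC12A2, ATP1B1, KCNQ1, AQP1 and AQP11. They were chosen by symbol, with the row of the highest mean level kept where a symbol repeats. All 9 symbols were found among the 17623 genes of the table, each in 1 row. The tissue, ileum (the end of the small intestine), came from male birds of the Taiping chicken breed at an age of 2 months. The 3 libraries of the MP group came from birds with a probiotic in the drinking water, at 2 mL per litre, beside the basal diet, and the 3 of the CT group from birds on the corn and soybean diet alone. The labels name neither the strains in the probiotic nor the duration of the supplement, and do not say whether a library held the RNA of a single bird. Gene expression was measured by RNA sequencing, and the authors deposited 1 mean of 3 libraries per gene and group. The spread between birds is therefore unknown, no p-value can be given, and the intervals below cover counting error only.

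Absorption and secretion share one machinery in this epithelium. The sodium pump on the basolateral side keeps cell sodium low, and sodium then enters at the brush border through exchangers that release protons. Chloride is taken up there in exchange for bicarbonate. In secretion, mostly by crypt cells, a basolateral cotransporter loads chloride, CFTR lets it out at the apical side, basolateral potassium channels recycle potassium, and water follows the salt. These roles are known mainly from mammals.

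Among the 9 genes, those of the sodium exchangers and the sodium pump subunit ATP1B1 were higher in MP ileum, by less than 1.5-fold. CFTR, SLC26A3 and SLC12A2, of chloride transport, were lower, also by less than 1.5-fold. Of all genes with at least 1 FPKM in either group, 62.2% were lower in MP. Differences lower than that of SLC26A3 were found in 38.9% of them, and than that of SLC12A2 in 45.6%. SLC26A3 and SLC12A2 thus lay in the middle range of all genes. The sodium-proton exchanger gene SLC9A3 was 33.7% higher, the sodium pump subunit gene ATP1B1 24.1% higher and the exchanger gene SLC9A2 18.2% higher. The chloride channel gene CFTR differed by -16.6%, and the chloride-bicarbonate exchanger gene SLC26A3 by -8.64%. The water channel genes AQP1 and AQP11 lay within their counting error of equality. No member reached a 1.5-fold difference in either direction.

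FPKM, the unit of the levels below, scales fragments to transcript length and sequencing depth, so levels of different genes can be set side by side. An average library held 15928865 counts in MP and 17150865 in CT, from the authors' mean counts. Count ratios, MP over CT, were divided by the ratio of these totals, 0.929. Their exact 95% intervals come from the counts summed over 3 libraries. PCR copies of a molecule are counted as separate reads here, so these intervals understate the error. In bulk tissue, fewer cells of a type and less RNA per cell cannot be told apart.

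The brush border sodium exchangers SLC9A3 and SLC9A2 both stood higher in MP. SLC9A3 (ENSGALG00000039738), the main sodium absorbing exchanger of the mammalian small intestine, had an authors' mean of 14.8 FPKM in MP and 11.1 FPKM in CT. Its mean count was 587 in MP and 473 in CT. The depth-scaled count ratio was 1.34 (counting interval 1.25 to 1.44), the highest of the 9 genes. SLC9A2 (ENSGALG00000016791), a related apical exchanger, had 27.1 FPKM in MP and 23.2 FPKM in CT, with mean counts of 1937 and 1764. Its count ratio was 1.18 (1.14 to 1.23). Their summed level was 41.9 FPKM in MP and 34.3 FPKM in CT. SLC9A2 was the more abundant of the pair in these libraries, 1.83 times the SLC9A3 level in MP and 2.08 times in CT.

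ATP1B1 (ENSGALG00000015233) encodes the beta subunit that carries the sodium pump to the cell surface. It was the most abundant of the 9 genes, with 487 FPKM in MP and 394 FPKM in CT. By level it ranked 149 in MP and 165 in CT among the 12828 genes with at least 1 FPKM in either group. The count ratio was 1.24 (1.23 to 1.26). Another beta subunit gene, ATP1B3, went the other way, with 27.8 FPKM in MP and 34.8 FPKM in CT. So did ATP1B4, with 4.73 FPKM in MP and 5.75 FPKM in CT. Of 5 other measured genes of the sodium pump and related ATPases, these included, 2 were higher and 3 lower (median -0.19). Among all genes 62.2% were lower, with a median of -0.07.

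On the chloride side, SLC26A3 (ENSGALG00000007959), which takes up chloride for bicarbonate at the brush border, had 140 FPKM in MP and 153 FPKM in CT. Its mean count was 6852 in MP and 8075 in CT, and the count ratio 0.914 (0.897 to 0.931). It was the second most abundant of the 9 genes in both groups. Its level was 9.41 times that of SLC9A3 in MP, against 13.7 times in CT.

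CFTR (ENSGALG00000032986), the apical chloride and bicarbonate channel opened by cyclic AMP, had 17.8 FPKM in MP and 21.3 FPKM in CT. Its mean count was 1413 in MP and 1823 in CT. The count ratio of 0.834 (0.801 to 0.869) was the lowest of the 9. SLC12A2 (ENSGALG00000014690), the basolateral sodium, potassium and chloride cotransporter that loads the secreting cell, had 19.7 FPKM in MP and 21.1 FPKM in CT, a count ratio of 0.924 (0.883 to 0.967). The FPKM ratio of CFTR to SLC12A2 was 0.901 in MP and 1.01 in CT. KCNQ1 (ENSGALG00000037138), a potassium channel subunit of the basolateral membrane, had 4.37 FPKM in MP and 4.84 FPKM in CT. It was the least abundant of the 9, and its mean counts of 171 in MP and 204 in CT left a wide interval around the count ratio, 0.904 (0.802 to 1.02).

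The water channel genes lay closest to equality. AQP1 (ENSGALG00000005209), a water channel that in mammals is found largely in vessel walls in the gut, had 20.8 FPKM in MP and 21.0 FPKM in CT, a count ratio of 0.981 (0.937 to 1.03). AQP11 (ENSGALG00000031734), a channel of intracellular membranes in mice, had 20.3 FPKM in MP and 20.2 FPKM in CT, a count ratio of 1.001 (0.943 to 1.06). The intervals leave room for differences of -6.33% to 2.83% for AQP1 and of -5.68% to 6.29% for AQP11, before any variation between birds.

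**Figure D1:**
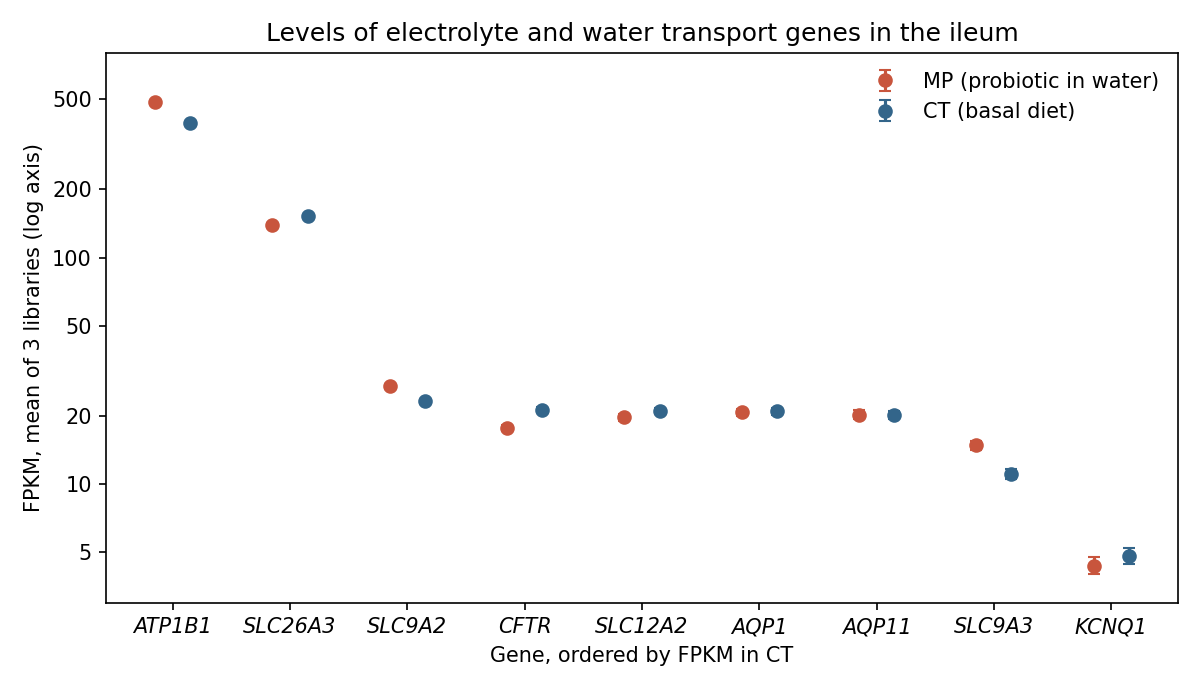
Level of each gene as the authors' mean FPKM of 3 libraries (log axis), MP left of CT, with bars for the exact 95% Poisson interval of the summed counts, which covers counting error only and is often smaller than the point. ATP1B1 and SLC26A3 stand well above the other genes, 6 genes lie between 14.8 and 27.1 FPKM in MP, and KCNQ1 is lowest.

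The order of levels was largely shared by the groups. ATP1B1 led in MP and in CT, followed by SLC26A3 and then SLC9A2, and SLC9A3 and KCNQ1 came last. In MP the counting intervals of AQP1 and AQP11 overlapped, as did those of AQP11 and SLC12A2, while CFTR lay apart below SLC12A2. In CT the intervals of CFTR, SLC12A2, AQP1 and AQP11 overlapped from each neighbour to the next. CFTR was number 7 of the 9 in MP and number 4 in CT. These places rest on counting error alone, since the spread between birds is not known.

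Differences were also taken as MP minus CT in log2(FPKM + 1), a scale that makes differences of scarce genes look smaller. On it SLC9A3 lay at 0.38, ATP1B1 at 0.30, SLC9A2 at 0.21 and AQP11 at 0.00. AQP1 lay at -0.01, SLC12A2 at -0.09, KCNQ1 at -0.12, SLC26A3 at -0.13 and CFTR at -0.25. That gives 4 genes higher and 5 lower, while 37.7% of all genes tested were higher and 62.2% lower. The median of the 9 was -0.01, against -0.07 over all 12828 genes, whose quartiles were -0.21 and 0.10. Of the 9 genes, 5 lay between those quartiles (SLC26A3, SLC12A2, KCNQ1, AQP1 and AQP11). Another 3 lay above them (SLC9A3, ATP1B1 and SLC9A2) and 1 below (CFTR). Larger absolute differences than that of SLC9A3 were found in 14.0% of all genes, than that of ATP1B1 in 22.2% and than that of CFTR in 30.9%.

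None of the 9 genes reached 1.5-fold. Among all genes tested, 2.87% reached it upward in MP and 1.97% downward, so an absence among 9 genes says nothing particular about them. The 1.5-fold genes numbered 368 higher and 253 lower, a split that depends on scaling: 470 and 192 with median-of-ratios scaling, 295 and 337 with equal FPKM totals, and 254 and 458 when epithelium markers were set equal. The counting interval excluded equality for 6 of the 9 genes, 3 higher and 3 lower, and for 66.9% of all genes. The share among the 9 was thus near that of all genes, and equality outside a counting interval is no sign of a difference between the groups of birds.

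**Figure D2:**
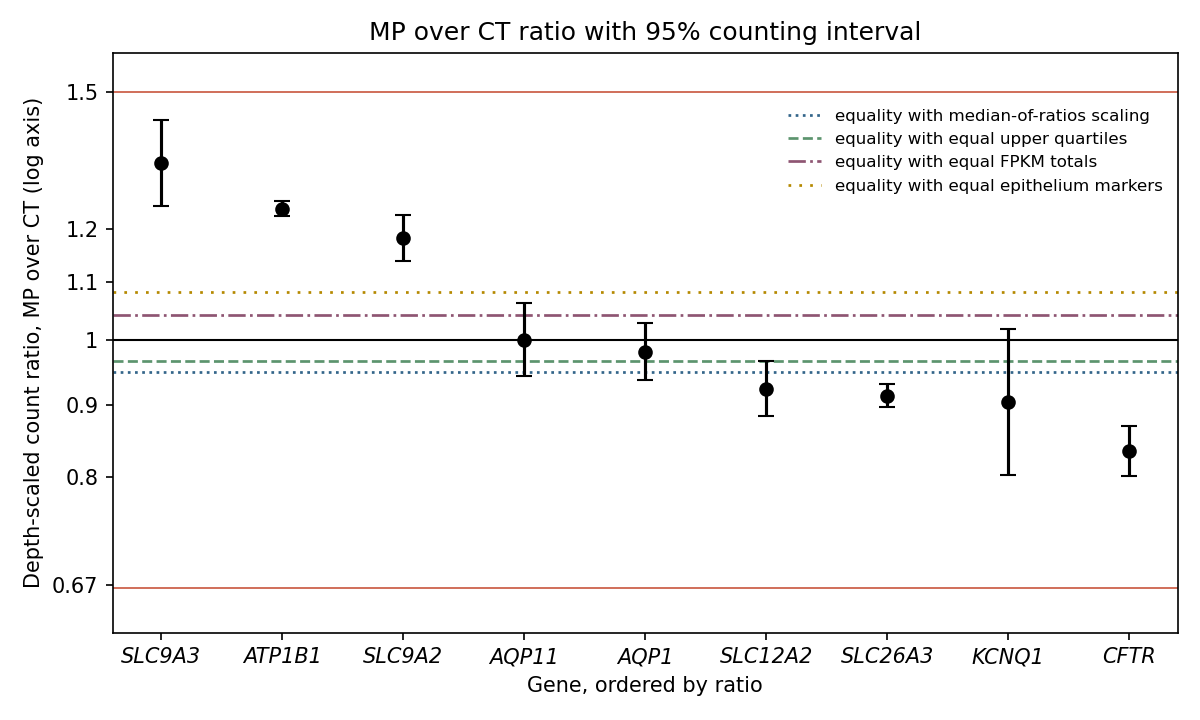
Depth-scaled count ratio of each gene, MP over CT (log axis), with its exact 95% counting interval. The black line is equality, the broken lines show where equality lies under 4 other scalings, and the red lines mark 1.5-fold. SLC9A3, ATP1B1 and SLC9A2 lie above every line of equality, and CFTR and SLC26A3 with their intervals lie below every one.

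The direction of 7 genes was the same under every scaling tried. SLC9A3, ATP1B1 and SLC9A2 were higher in MP, and CFTR, SLC26A3, SLC12A2 and KCNQ1 lower. SLC12A2 lay at only -0.02 with median-of-ratios scaling, where equality, at a ratio of 0.949, fell inside its interval (0.883 to 0.967). The KCNQ1 interval (0.802 to 1.02) held equality with FPKM as deposited. For SLC12A2 and KCNQ1 the lower direction thus lay within counting error on some scalings. AQP1 turned to 0.06 with median-of-ratios scaling and 0.03 with equal upper quartiles, and AQP11 to -0.05 with equal FPKM totals and -0.11 with equal epithelium markers, so neither water channel gene has a direction in these data.

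Cell type markers moved beside these genes. Of 11 measured epithelium markers, 8 were higher and 3 lower in MP, with a median log2 difference of 0.11. Their summed level was 4335 FPKM in MP and 3915 FPKM in CT. EPCAM (0.02), CDH17 (0.01) and CDH1 (-0.002) were close to level, while ELF3 (0.63), KRT20 (0.45), VIL1 (0.32) and LGALS3 (0.29) were higher. None of the epithelium markers found was listed at 0, and the lowest was KRT19, with 0.817 FPKM in MP and 1.29 FPKM in CT. When FPKM was scaled so that the geometric mean of these markers was equal, the count ratios were 1.23 for SLC9A3 (1.15 to 1.32), 1.15 for ATP1B1 (1.13 to 1.16) and 1.09 for SLC9A2 (1.05 to 1.13). On that scaling CFTR lay at 0.770 (0.740 to 0.802) and SLC26A3 at 0.843 (0.828 to 0.859). The remaining genes also had intervals below equality there. SLC12A2 lay at 0.853 (0.815 to 0.893), KCNQ1 at 0.835 (0.741 to 0.940), AQP1 at 0.906 (0.865 to 0.949) and AQP11 at 0.924 (0.871 to 0.981).

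Crypt cell markers, of interest because CFTR and SLC12A2 are crypt genes in mammals, were lower for 6 of 6 (median -0.29), with a summed level of 487 FPKM in MP and 565 FPKM in CT. OLFM4 was the largest part of this sum, with 440 FPKM in MP and 501 FPKM in CT. The stem cell gene LGR5 had the largest difference, with 7.36 FPKM in MP and 13.0 FPKM in CT. Counting intervals of LGR5, OLFM4, TOP2A and EPHB2 lay below equality. Those of SOX9 (count ratio 0.972, 0.891 to 1.06) and SMOC2 (0.858, 0.687 to 1.07) held it. Endothelium markers, given because AQP1 is a vessel gene in mammals, were lower for 10 of 10 (median -0.25), with a summed level of 133 FPKM in MP and 160 FPKM in CT. Of the smooth muscle markers 8 of 8 were lower (median -0.42), at 2467 FPKM in MP and 3632 FPKM in CT. Brush border markers were higher for 7 of 9 (median 0.14), although their summed level was 3905 FPKM in MP and 3923 FPKM in CT. Goblet cell markers were higher for 1 of 4, at 2673 FPKM in MP and 3924 FPKM in CT. MUC2, a symbol with 2 rows, was the largest part of this sum, with 1916 FPKM in MP and 3033 FPKM in CT. Its mean count in MP was 8175, below the 9112 of AGR2 at 680 FPKM, so its FPKM is scaled to a short length. The higher one of the list was SPDEF, with 77.2 FPKM in MP and 63.8 FPKM in CT. CLCA1, a goblet cell gene outside this list, was also higher, with 1424 FPKM in MP and 887 FPKM in CT. Leukocyte markers were lower for 6 of 6 (median -0.32), at 1005 FPKM in MP and 1198 FPKM in CT. Of 3 measured red blood cell genes, HBBA had 48.6 FPKM in MP and 22.6 FPKM in CT, HBA1 64.0 FPKM in MP and 37.0 FPKM in CT, and ALAS2 45.9 FPKM in MP and 54.9 FPKM in CT (list median 0.77). Beside these counts, 62.2% of all genes were lower in MP, with a median of -0.07. The part of these marker shifts in the differences of the transport genes was not tested.

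**Figure D3:**
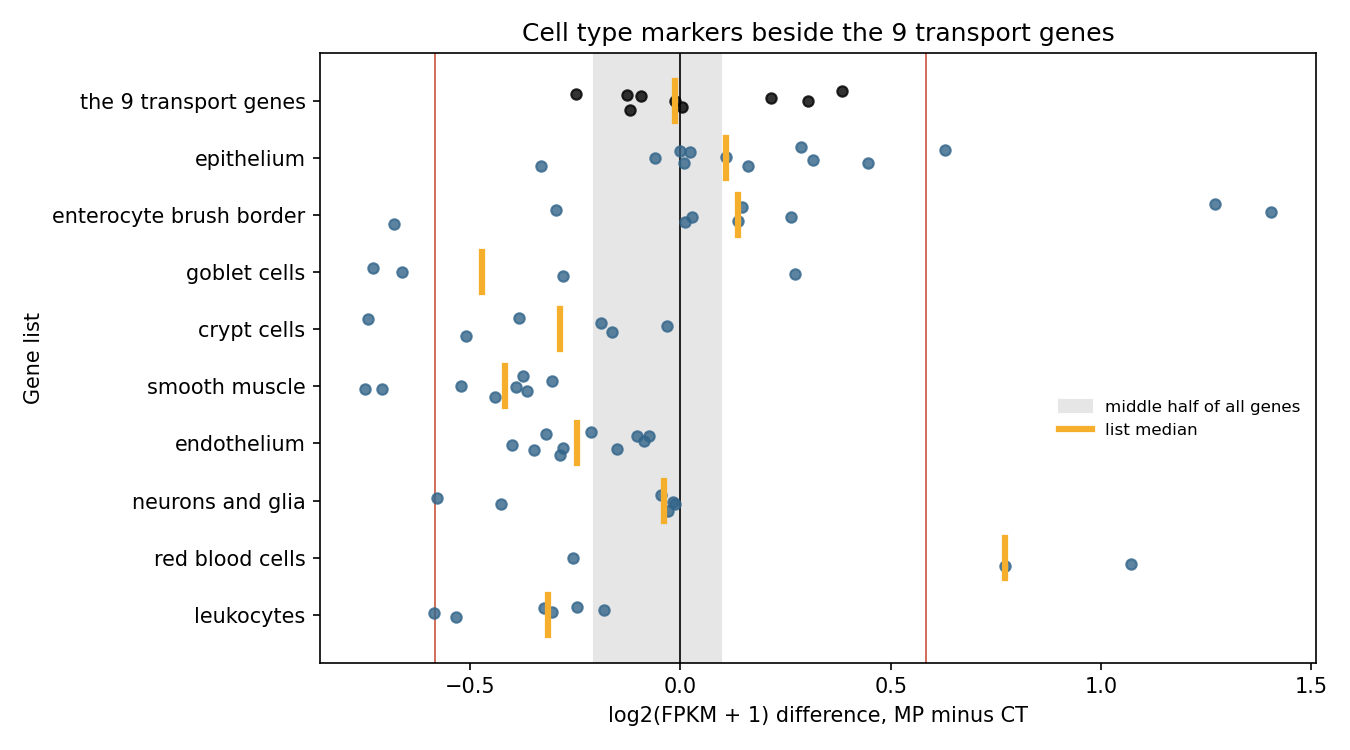
Difference in log2(FPKM + 1), MP minus CT, of each measured cell type marker (blue) and of the 9 transport genes (black), with list medians in yellow. The grey band holds the middle of all genes, from -0.21 to 0.10, and the red lines mark 1.5-fold. All endothelium, smooth muscle, crypt, leukocyte and neural markers lie below 0, while most epithelium markers lie above.

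The wider transport machinery was read from 11 lists of other genes, 192 symbols in all, of which 154 were found and 125 had at least 1 FPKM in either group. Of these 125, 46 were higher (36.8%) and 79 lower in MP, against 37.7% higher and 62.2% lower among all genes. At 1.5-fold on the log2(FPKM + 1) scale, on which all calls of these lists were made, 3 were higher and 2 lower, which is 4% of them, against 4.84% of all genes in either direction. Of the higher ones, SLC26A9 passed the minimum through MP alone, with 1.15 FPKM in MP and 0.013 FPKM in CT. The median log2 difference of the 125 genes was -0.08, close to the -0.07 of all genes. The genes named below had the largest differences of their list at 5 FPKM or more, or its highest level; any other was chosen after its values were seen.

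Among the other sodium-proton exchangers, 1 of 5 was higher and 4 lower (median -0.09). Of all genes, 62.2% were lower and the median was -0.07, so this count says nothing particular about the family. SLC9A8, an exchanger of the Golgi and the apical membrane in mammals, was the one that stood higher, with 19.2 FPKM in MP and 15.7 FPKM in CT. SLC9A7, of intracellular membranes, had 5.53 FPKM in MP and 6.91 FPKM in CT. The epithelial sodium channel was scarce: SCNN1A had 1.34 FPKM in MP and 1.24 FPKM in CT, and SCNN1B was under 1 FPKM in both. In the list of that channel and the aldosterone axis, 4 of 14 genes were higher and 10 lower (median -0.08). The mineralocorticoid receptor gene NR3C2 had 34.4 FPKM in MP and 42.4 FPKM in CT, and the kinase gene WNK1, which acts on chloride cotransporters, 28.6 FPKM in MP and 35.5 FPKM in CT. NEDD4L, a ubiquitin ligase that withdraws sodium channels from the membrane, had 46.4 FPKM in MP and 37.3 FPKM in CT.

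Anion exchangers and bicarbonate transporters had the widest range of log2 differences of the 11 lists, from -0.63 to 1.08. Its upper end was SLC26A9, which passed the minimum through MP alone. The lowest difference of the 11 lists was that of the carbonic anhydrase gene CA6, -0.73. Of the anion transporters, 6 of 14 were higher and 8 lower (median -0.03), while 62.2% of all genes were lower (median -0.07). SLC26A6, an apical chloride, oxalate and bicarbonate exchanger, had 39.6 FPKM in MP and 21.5 FPKM in CT, a count ratio of 1.85 (1.76 to 1.94). This is the opposite direction to its relative SLC26A3, whose level was 3.52 times that of SLC26A6 in MP and 7.09 times in CT. SLC26A9, an epithelial chloride transporter, was almost unread in CT: its counts summed to 175 over the MP libraries and to 2 over the CT libraries, a ratio of 94.2 (25.7 to 784). With group means only, it cannot be seen how many MP birds carried those reads. SLC4A11, of the bicarbonate transporter family, was lower, with 2.61 FPKM in MP and 4.58 FPKM in CT. The basolateral sodium bicarbonate cotransporter gene SLC4A4 had 42.9 FPKM in MP and 40.9 FPKM in CT.

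Carbonic anhydrases, which supply protons and bicarbonate to these exchangers, were higher for 5 of 8 (median 0.10). Among all genes 37.7% were higher, with a median of -0.07. CA4, bound to the cell surface, had 178 FPKM in MP and 119 FPKM in CT, a count ratio of 1.51 (1.48 to 1.54), and lay at 0.58 in log2, just short of 1.5-fold. The cytosolic CA2 had 56.7 FPKM in MP and 39.3 FPKM in CT, a count ratio of 1.45 (1.39 to 1.52). CA6, a secreted form, was lower, with 1.99 FPKM in MP and 3.96 FPKM in CT.

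Chloride channel genes were higher for 7 of 19 and lower for 12 (median -0.05). With 62.2% of all genes lower and a median of -0.07, this count says nothing particular about these channels. CLCN2, a volume and voltage regulated chloride channel, had 36.0 FPKM in MP and 27.3 FPKM in CT. CLCA1, a secreted goblet cell protein that modifies calcium activated chloride channels, had 1424 FPKM in MP and 887 FPKM in CT, a count ratio of 1.62 (1.61 to 1.63). CLIC2 was lower, with 53.2 FPKM in MP and 69.1 FPKM in CT, and so was BEST1, with 4.45 FPKM in MP and 6.90 FPKM in CT. Of the other cation-chloride cotransporters, 2 were measured, SLC12A4 at 34.2 FPKM in MP and 37.2 FPKM in CT, and SLC12A7 at 23.4 FPKM in MP and 22.3 FPKM in CT.

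Of the potassium channel genes, 9 of 10 were lower in MP (median -0.22), while 62.2% of all genes were lower (median -0.07). KCNQ1 was lower too, but its counting interval held equality. The inward rectifier gene KCNJ16 was the most abundant, with 74.5 FPKM in MP and 93.6 FPKM in CT, 17.1 times the KCNQ1 level in MP and 19.4 times in CT. KCNK1, a background potassium channel, had 34.7 FPKM in MP and 40.9 FPKM in CT. KCNMA1, the large calcium activated channel, which is also a smooth muscle gene, had 9.93 FPKM in MP and 13.6 FPKM in CT. KCNE1 and KCNE3, which are partners of KCNQ1, were not found by symbol and are not analysed here. Of the same family, KCNE2 had 2.10 FPKM in MP and 2.13 FPKM in CT. KCNE4 had 1.47 FPKM in MP and 2.24 FPKM in CT, a count ratio of 0.666 (0.421 to 1.04).

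Of the other aquaporins, AQP5 had 22.2 FPKM in MP and 20.1 FPKM in CT, about the level of AQP1 and AQP11. AQP3 had 5.69 FPKM in MP and 5.79 FPKM in CT, and the remaining 4 that were found by symbol, AQP2, AQP4, AQP8 and AQP9, stayed under 1 FPKM in both groups.

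Among genes of secretory signalling, 20 of 28 were lower and 8 higher (median -0.14). GUCA2A, the guanylin hormone of the gut lumen, was among the most abundant, with 3604 FPKM in MP and 3916 FPKM in CT. Its receptor gene GUCY2C was level, with 245 FPKM in MP and 244 FPKM in CT. VIP, a neuropeptide that opens CFTR through cyclic AMP, had 33.6 FPKM in MP and 45.8 FPKM in CT, and PRKAR2B, a regulatory subunit of protein kinase A, 3.72 FPKM in MP and 5.60 FPKM in CT. Neural markers had a summed level of 25.9 FPKM in MP and 29.8 FPKM in CT, and though 6 of 6 were lower, their median of -0.04 was no lower than the -0.07 of all genes, of which 62.2% were lower. Their part in the VIP difference was not tested. SST, the antisecretory hormone somatostatin, had 18.1 FPKM in MP and 12.9 FPKM in CT, and the serotonin receptor gene HTR4 12.6 FPKM in MP and 9.54 FPKM in CT.

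Scaffold proteins tether SLC9A3 and CFTR under the brush border. Their list was split, with 10 of 18 genes higher and 8 lower (median 0.03), while 37.7% of all genes were higher (median -0.07). SLC9A3R1, the main such scaffold, was level at 403 FPKM in MP and 400 FPKM in CT, as was ezrin (EZR), its link to actin, at 210 FPKM in MP and 202 FPKM in CT. PDZD3 had 30.8 FPKM in MP and 24.4 FPKM in CT. SLC9A3R2 had 26.4 FPKM in MP and 33.7 FPKM in CT, radixin (RDX) 30.2 FPKM in MP and 41.3 FPKM in CT, and moesin (MSN) 48.6 FPKM in MP and 63.9 FPKM in CT.

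**Figure D4:**
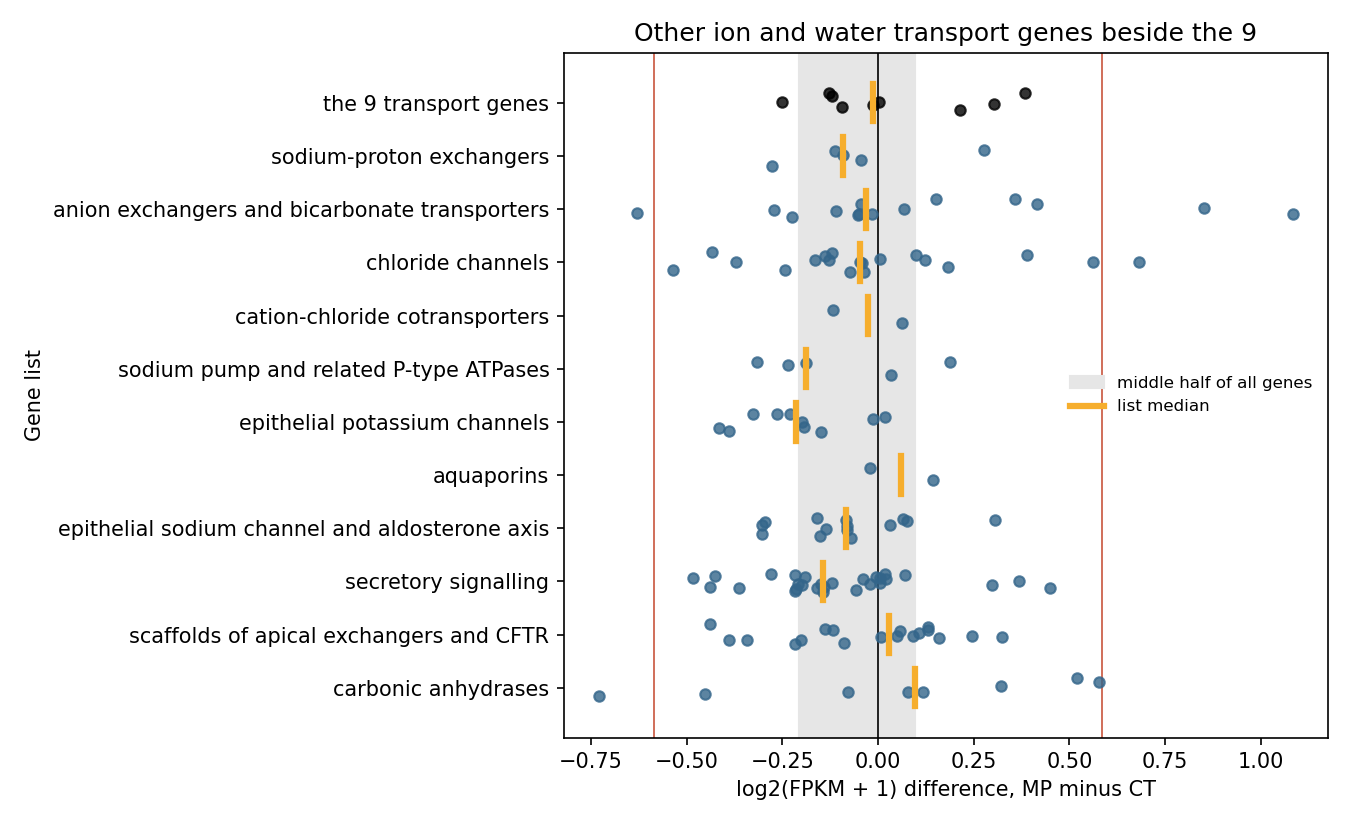
Difference in log2(FPKM + 1), MP minus CT, of each measured gene of the 11 transport lists (blue) and of the 9 genes (black), with list medians in yellow. The grey band holds the middle of all genes, from -0.21 to 0.10, and the red lines mark 1.5-fold. Most points lie inside the red lines, with 3 genes beyond the upper and 2 beyond the lower one.

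The table's own Gene Ontology terms offered larger sets, chosen after the values were seen. Of the 9 genes, 5 carried the term apical plasma membrane, which 0.902% of annotated genes carry (CFTR, SLC9A3, SLC12A2, ATP1B1 and AQP1). The term basolateral plasma membrane was carried by 3 (ATP1B1, KCNQ1 and AQP1). SLC26A3 and SLC9A2, called apical above, lacked the apical term, while SLC12A2, called basolateral, carried it. The 9 were chosen as epithelial transport genes, so their share is no finding. Among the other measured genes, 8 of 23 with the term sodium ion transport were higher (median -0.09), and 11 of 28 with chloride transport (median -0.04). For potassium ion transport 12 of 41 were higher (median -0.19), and for bicarbonate transport 7 of 15 (median -0.02). Of genes at the apical plasma membrane 42 of 103 were higher, and at the basolateral 21 of 66. With the 9 left out, 34.8% of the genes with the sodium term were thus higher, against 37.7% of all genes. SLC9A3, SLC9A2 and ATP1B1, all higher, carry this term too and are not in that share, so it does not describe the whole class. The difference between these 3 genes and the others was not tested.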

How the data were processed

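The table held 1 value per gene and group. Per the file headers, the authors deposited FPKM values, scaled to length and depth. They also deposited an estimated count per gene, not scaled to depth. Both were averaged by the authors over 3 libraries. Per the submitters' processing notes, StringTie 1.3.1, HISAT2, Bowtie2, DESeq2 and fastp 0.18.0 were used, in roles that are not stated. Per the labels' protocols, RNA was extracted with TRIzol, and the kit is described as one for small RNA. No build of the genome is named, and coordinates were not used here. Another 4 columns of values belong to no sample of this series and were not used.

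Genes that reached 1 FPKM in MP or CT were compared, on log2(FPKM + 1). For counting intervals, mean counts were multiplied by 3 and rounded (Clopper-Pearson, exact, given the total of MP and CT; scipy 1.17.1). Of the 9 genes, ATP1B1 had products that were not whole (within 0.002) before rounding. Symbols are those of the table; all 9 also stand in RefSeq's list for GRCg7b. A gene of like pattern was not sought, since group means give no pattern. The rule for naming genes of a list was up to 4 with the largest difference at 5 FPKM or more, and the most abundant one. Not every gene that met this rule is named, and others were named after their values were seen. The genes and lists were chosen with earlier results of these data known. The ratio and its interval were tested on simulated data that held counting error alone. Variation between birds and PCR copies were not simulated, so this checks the calculation only. Values of 1 other gene are not reported here.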

Additional observations from a re-analysis of the deposited data

How the results depend on the processing

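No paired analysis was possible because each group has 1 mean value per gene and no value per library; leaving out libraries was not run for that reason. The 9 alternatives covered scaling, pseudocount, minimum level and repeated symbols. Among the 9 genes, the counts higher and lower stayed within 1.5 times of the main ones, and none reached 1.5-fold under any alternative. KCNQ1 dropped out at a minimum of 5 FPKM. Of 80 recomputed differences of single genes, 61 shifted within their counting interval's margin, 19 by more, and 4 changed sign (AQP1 and AQP11). The settings of minimum level and repeated symbols could not shift any of these values, since each gene had 1 row and a minimum only drops genes. Their unchanged values are counted among the 61, which therefore overstates the stability. The median of the 9 was 0.059 with median-of-ratios scaling and -0.12 with equal epithelium markers.

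With equal epithelium markers, which shift the median gene by -0.10, 28 of the other transport genes were higher and 458 of all genes 1.5-fold lower. The other transport genes at least 1.5-fold higher numbered 5 with a pseudocount of 0.1, library totals or equal upper quartiles, and 6 with median-of-ratios scaling. Those at least 1.5-fold lower numbered 4 with a pseudocount of 0.1, 1 with median-of-ratios scaling and 0 at a minimum of 5 FPKM. Of all genes, 528 were at least 1.5-fold lower with a pseudocount of 0.1 and 152 at a minimum of 5 FPKM. A higher minimum tests fewer genes, a smaller pseudocount enlarges the differences of scarce genes, and the scalings of FPKM multiply every MP level by the same factor. Otherwise the cause was not tested. Low counts leave wide counting intervals for KCNQ1, SCNN1A, SCNN1B and SLC26A9.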
